A study of Mus musculus with 9 samples.

Results

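Expression was examined for 42 genes that bring pyruvate and fatty acids into the mitochondrion and oxidize them there, in embryonic mouse hearts from which the chromatin factor gene *Ctcf* was deleted. The genes were listed by biochemical role, with earlier results of these data known, and all 42 were found among the 14011 genes of the deposited table. The list holds 20 genes of pyruvate entry and the citrate cycle and 22 genes of fatty acid uptake and beta-oxidation. RNA from hearts at E10.5 was sequenced in 9 libraries, 3 per genotype, each from a pool of 6 hearts of a mixed strain. Homozygotes were *Ctcf* fl/fl; *Nkx2.5-Cre*/+ and heterozygotes *Ctcf* fl/+; *Nkx2.5-Cre*/+. The labels give controls as *Ctcf* fl/fl without Cre, whereas the study gives *Ctcf* fl/+ without Cre for the RNA-seq and either genotype for its controls in general, and in each case a comparison with controls also includes the Cre driver. *Nkx2.5-Cre* recombines in cardiac progenitors and their derivatives, and the whole hearts sequenced also held cells that keep CTCF, such as endocardium. Libraries are named here by genotype and by the number that ends the column name.

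Acetyl-CoA is the common product of pyruvate and of fatty acid oxidation, and the citrate cycle oxidizes it while passing electrons to the respiratory chain. Long-chain fatty acids are taken up, bound to carrier proteins and activated to acyl-CoA, and they cross the inner mitochondrial membrane as carnitine esters. Inside, each turn of the beta-oxidation spiral shortens the chain by one acetyl-CoA. The early embryonic heart relies largely on glucose and lactate, and fatty acids become its main fuel around and after birth.

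Libraries held from 4294537 to 11629365 reads in all. Levels are given as the deposited normalized value, a number of reads scaled to the library's effective size, on which a single read counts for 0.0901 to 0.231 units. Every one of the 42 genes was covered by at least 125 reads in each library, so none sat near the detection limit. The pool is the replicate, and the study names 3 biological replicates per genotype. Whether the pools were collected separately is not said in the sources, so p-values measure the spread between these libraries. The deleted gene *Ctcf* had normalized values of 121, 122 and 122 in controls, 100.7, 94.2 and 97 in heterozygotes and 79.6, 80 and 84.7 in homozygotes. The 3 genotypes did not overlap for *Ctcf*, and the RNA that remained in homozygotes was 67% of the control mean. Control 1 stood apart in genes of liver and visceral endoderm, whose 11 genes in the table summed to 1127 there and to between 13.3 and 91.3 in the other 8 libraries.

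Per kilobase of exons, the control level of the 42 genes ran from 3.43 to 227 units, and genes listed with the citrate cycle held the top of the order. *Mdh1*, the cytosolic malate dehydrogenase, which is listed there although it acts outside the mitochondrion, was highest at 227 per kb, followed by *Cs*, which encodes citrate synthase, at 189 per kb. *Idh2*, the mitochondrial NADP-dependent isocitrate dehydrogenase, and *Mdh2*, the mitochondrial malate dehydrogenase, stood close together at 177 and 175 per kb. Those neighbors in the order differed by less than their spread between control libraries. *Pdhb*, a subunit of pyruvate dehydrogenase, led the pyruvate genes at 140.2 per kb. *Etfb*, a subunit of the electron transfer flavoprotein, was at 119 and *Fabp3*, the fatty acid binding protein of heart muscle, at 111 per kb. The highest gene of the beta-oxidation spiral was *Acaa2*, a 3-ketoacyl-CoA thiolase, at 79.1 per kb, and the highest of the auxiliary enzymes was *Eci1*, an enoyl-CoA isomerase, at 44.3 per kb. The entry steps for fatty acids were low, with *Acsl1*, a long-chain acyl-CoA synthetase, at 3.43 and the fatty acid transporter *Cd36* at 9.16 per kb. Of the carnitine palmitoyltransferases of the outer membrane, the muscle form *Cpt1b* had 37.3 and the liver form *Cpt1a* 8.42 per kb.

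**Figure D1:**
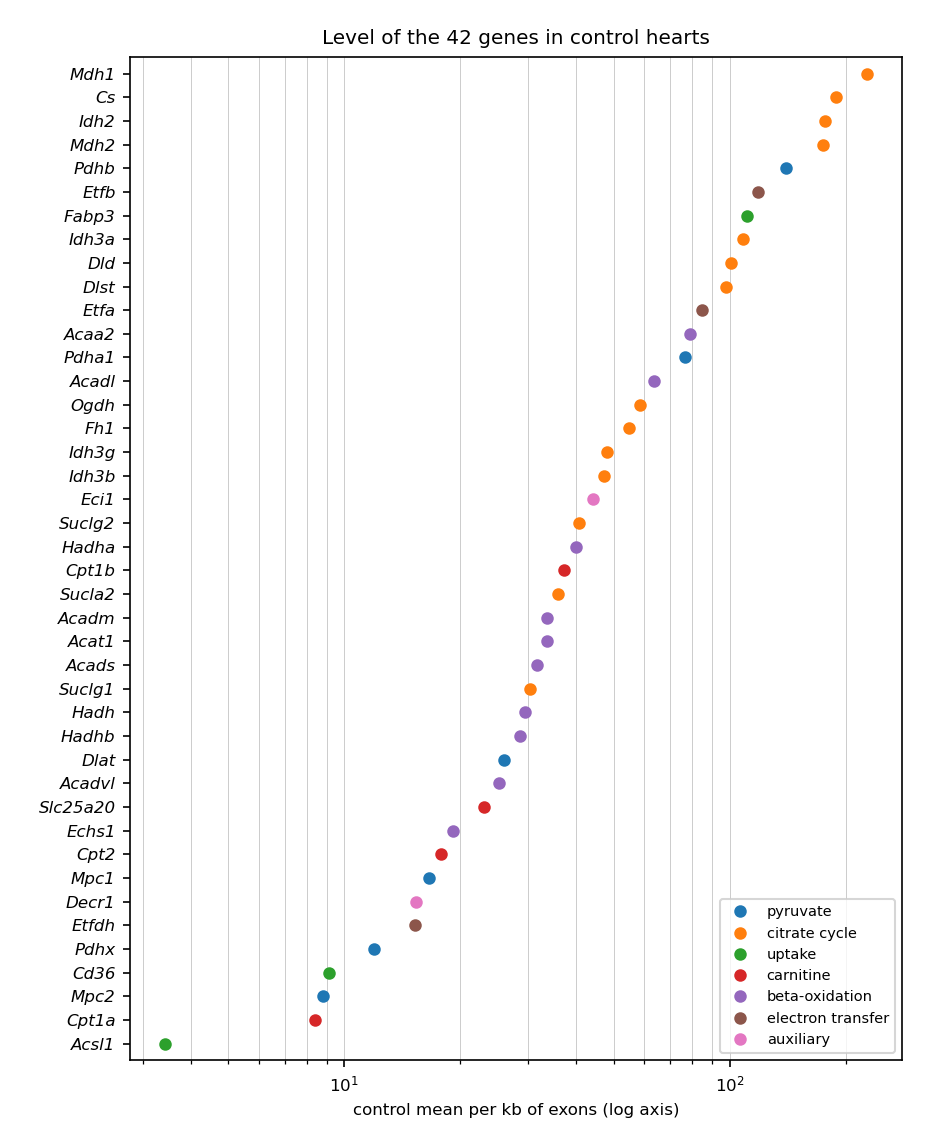
Mean normalized value of the 3 control libraries divided by the exonic length in kilobases, on a log axis, for the 42 genes in order of level and colored by role. Genes listed with the citrate cycle take the 4 highest places, from 175 to 227 per kb, and Acsl1 is lowest at 3.43 per kb.

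The first comparison asked how the homozygous hearts differed from controls. Of the 42 genes, 2 rose (*Mdh1* and *Cd36*) and 2 fell (*Idh2* and *Cpt1b*) in homozygotes at an adjusted p under 0.05 in limma, and 38 did not pass. That is 9.52% of the 42 genes, beside 15.2% of all genes tested, of which 7.19% rose and 8.03% fell. With the trend of fold change with gene length removed these shares stood the other way, at 14.3% (6 of the 42 genes) beside 9.67% of all genes. At an unadjusted p under 0.05 there were 14 of the 42, or 33.3%, beside 29.6% of all genes. The median over the 42 log2 fold changes was -0.04, and over all genes 0.00. The median size of the change, without its sign, was 0.11 for the 42 genes and 0.16 for all genes. For 40 of the 42 genes the 95% interval of the fold change lay within 1.5-fold of controls, and *Cd36* and *Cpt1b* were the exceptions. The call was lost for *Mdh1* and *Idh2* without control 3 and likewise without homozygote 2, which left 2 called genes in each case. Without homozygote 3 both were lost as well and *Cpt1a* passed, which left 3. *Cd36* and *Cpt1b* were called in each of these fits.

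Homozygotes were then compared with heterozygotes, which carry the same driver. Here 0 of the 42 genes rose and 5 fell, which were *Idh2*, *Cpt1b*, *Acadm*, *Acaa2* and *Acat1*. The 5 called genes are 11.9% of the 42, beside 13.6% of all genes tested. With the length trend removed they were 7, or 16.7% beside 10.5% of all genes. Among all genes 6.87% were called higher and 6.7% lower. No gene of the 42 was called higher by edgeR or DESeq2 either, whereas 1 was without homozygote 1 (*Mpc1*) and 1 without homozygote 3 (*Cpt1a*). At an unadjusted p under 0.05, 13 were lower and 3 higher, 38.1% of the 42 together, beside 27.6% of all genes. The median of the log2 fold changes was -0.09 for the 42 genes and 0.00 for all genes, and 71.4% of the 42 (30 genes) had a negative value, beside 50.8% of all genes. The number called fell to 3 without heterozygote 1, to 1 without heterozygote 2, to 2 without heterozygote 3 and to 2 without homozygote 3. *Cpt1b* was called in each of these fits. Both comparisons use the same homozygous libraries and are given side by side for that reason.

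**Figure D2:**
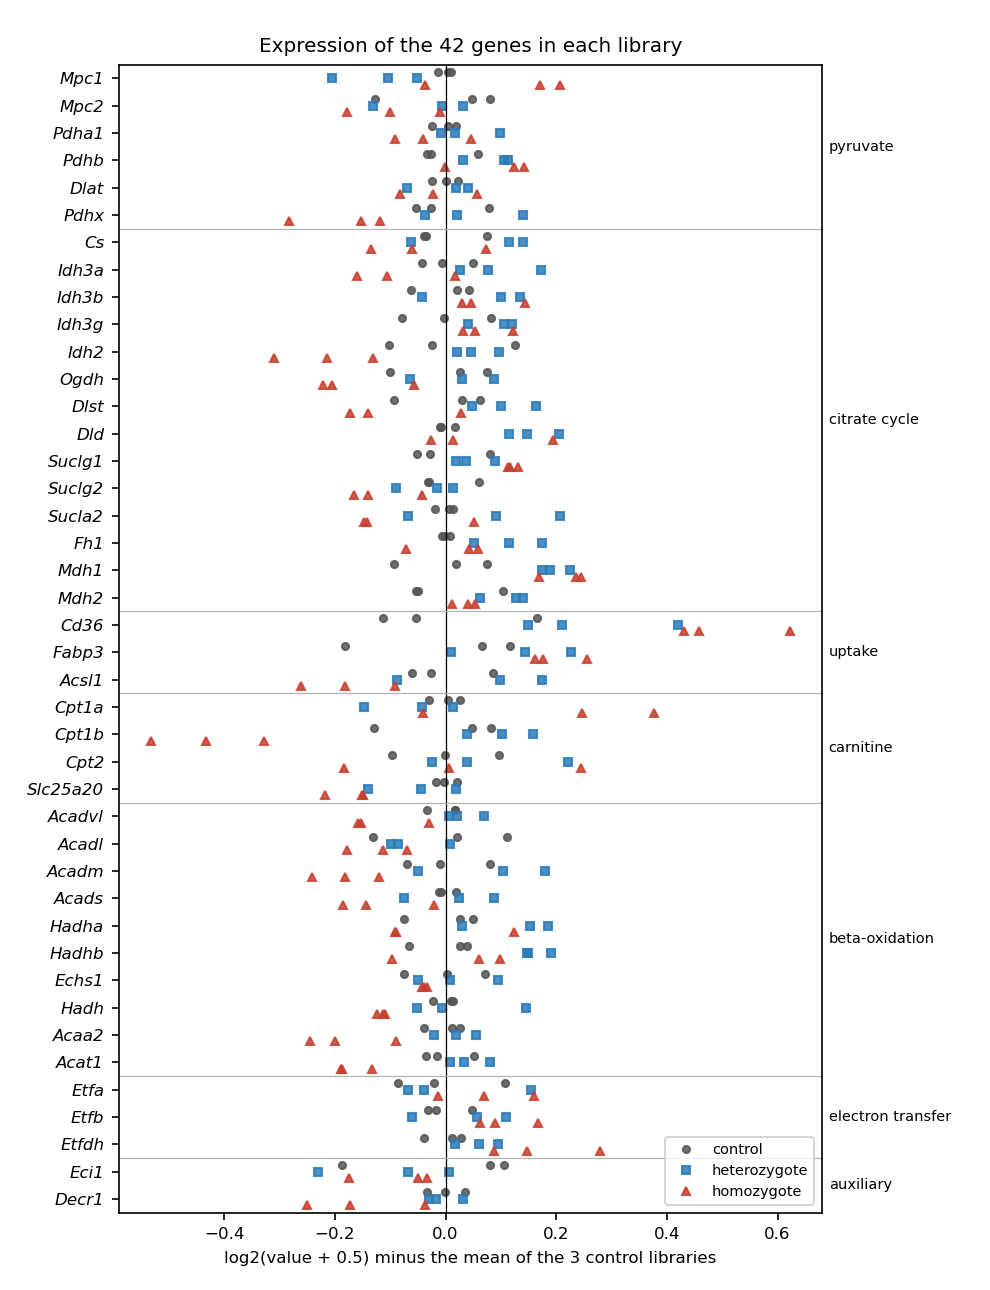
Each point is 1 library, plotted as log2(value + 0.5) minus the mean of the 3 control libraries, with the 42 genes grouped by role; circles are controls, squares heterozygotes and triangles homozygotes. Most points lie within 0.2 of 0, while the 3 homozygous libraries stand below all others for Cpt1b and above all others for Cd36.

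**Figure D3:**
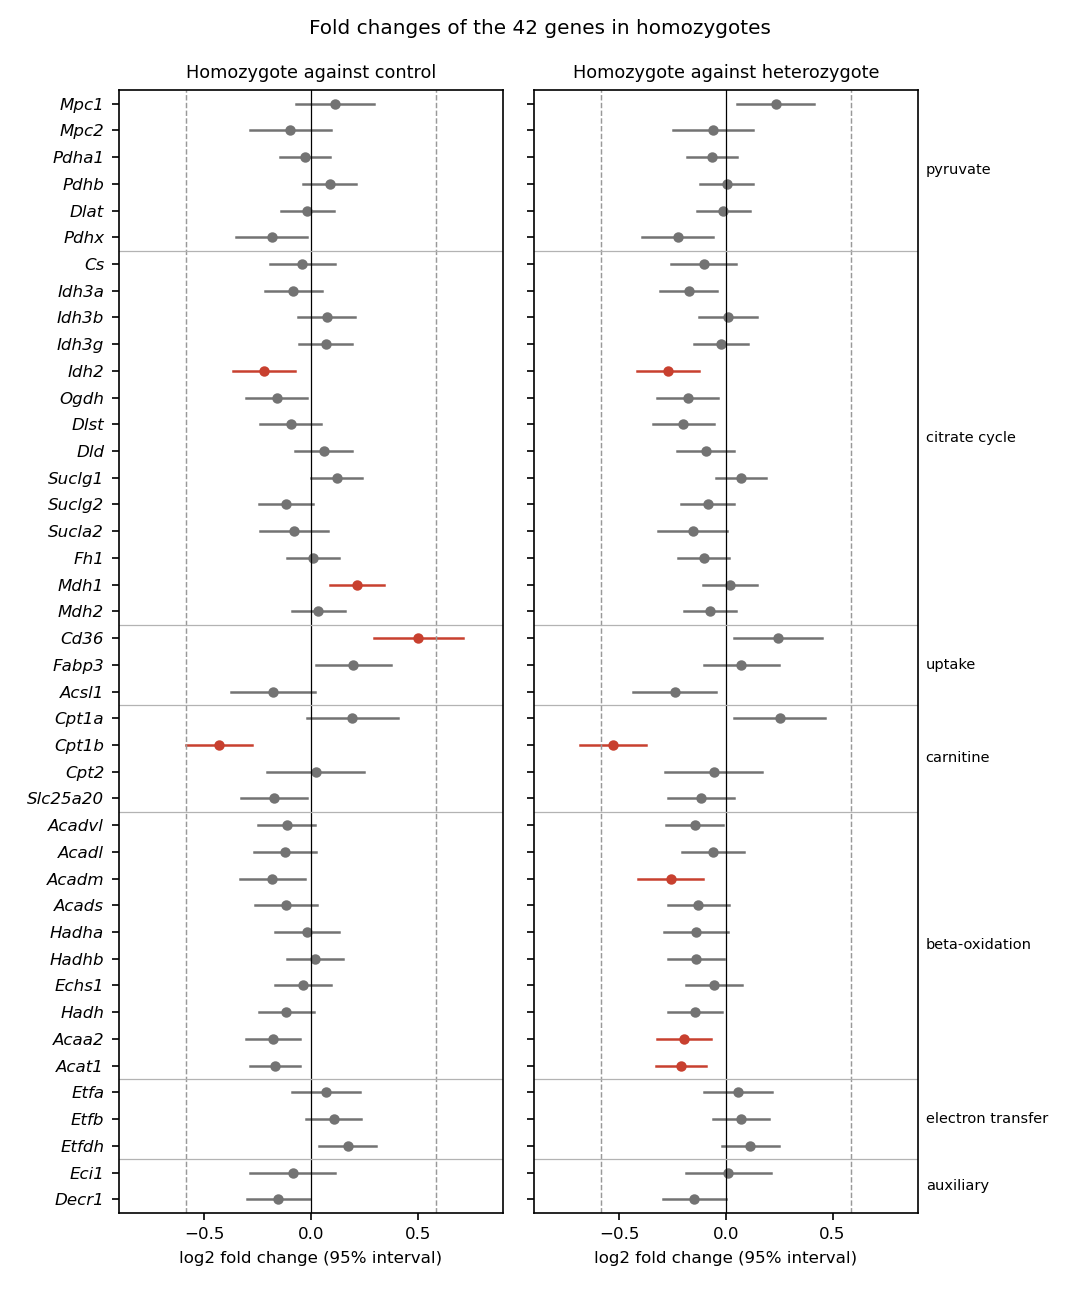
Log2 fold changes with 95% intervals of the 42 genes in homozygotes against controls (left) and against heterozygotes (right), with called genes in red and dashed lines at 1.5-fold. Mdh1, Cd36, Idh2 and Cpt1b are red on the left, and Idh2, Cpt1b, Acadm, Acaa2 and Acat1 on the right.

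Separation of libraries was counted as well. In 12 of the 42 genes every homozygous library lay below every control library, which is 28.6% beside 16.5% of all genes, and in 6 every homozygous library lay above, 14.3% beside 16.6%. Against heterozygotes, 15 genes lay wholly below and 3 wholly above, which is 35.7% and 7.14% beside 15.5% and 15.3% of all genes. Both parts of the list were counted separately, with no test of their difference. Of the 22 fatty acid genes, 9 lay wholly below controls and 10 wholly below heterozygotes, and of the 20 pyruvate and citrate cycle genes 3 and 5 did. The median log2 fold changes of the fatty acid genes were -0.10 against controls and -0.12 against heterozygotes, and those of the pyruvate and citrate cycle genes were -0.02 and -0.08. Without homozygote 3 the value of -0.02 turned to 0.01, and without homozygote 2 it was -0.05. Without control 2 the fatty acid median against controls was -0.06, and with the trend of fold change with gene length removed it was also -0.06.

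**Figure D4:**
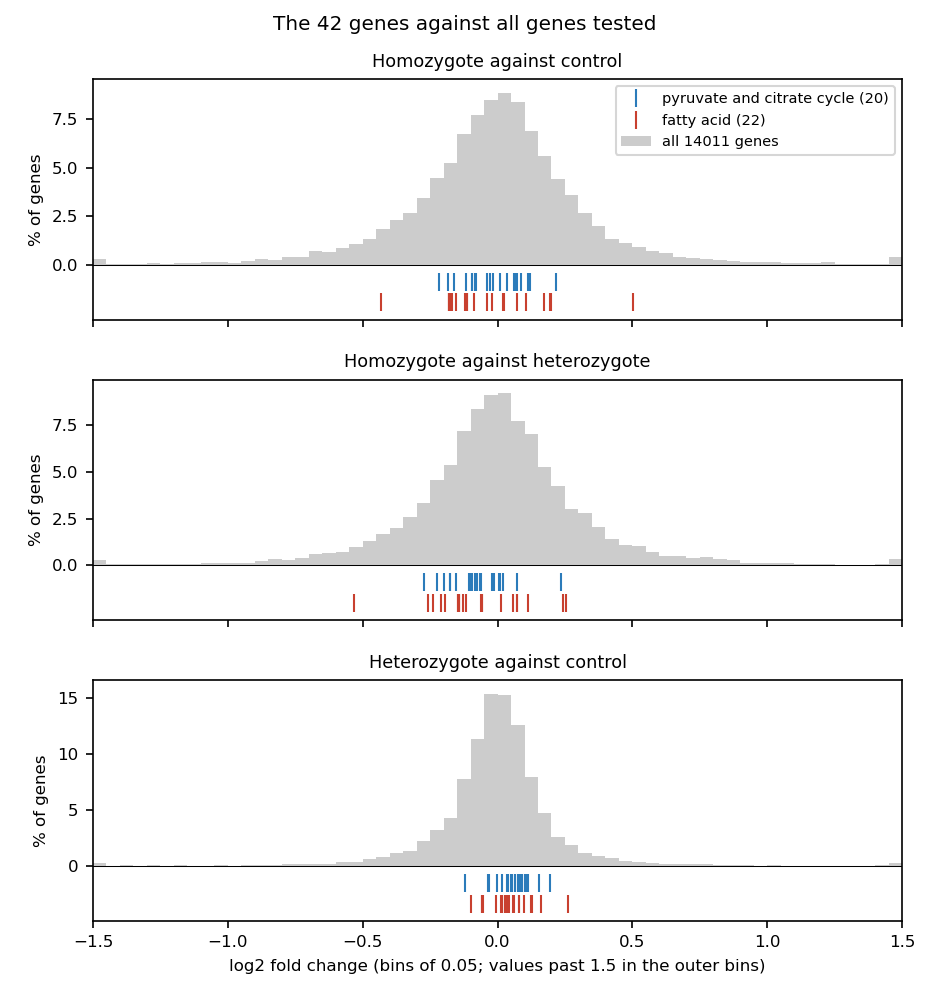
Log2 fold changes in the 3 comparisons, with bars for the percent of all 14011 genes in bins of 0.05 and ticks for the 20 pyruvate and citrate cycle genes and the 22 fatty acid genes. The ticks stay mostly within the central mass of all genes, with Cpt1b at the far left and Cd36 at the far right of the upper panel.

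Pyruvate enters through a carrier of 2 subunits, *Mpc1* and *Mpc2*, and is turned into acetyl-CoA by the pyruvate dehydrogenase complex, of which *Pdha1*, *Pdhb*, *Dlat* and *Pdhx* were measured. None of these 6 genes was called in homozygotes against controls or heterozygotes by limma, edgeR or DESeq2, with 1 and 2 at an unadjusted p under 0.05, respectively. Their median log2 fold changes were -0.02 and -0.04. Of all genes 15.2% and 13.6% were called in limma in these comparisons, and 29.6% and 27.6% had an unadjusted p under 0.05. *Pdhb* had normalized values of 203, 217 and 204 in controls, 224, 213 and 225 in heterozygotes and 208, 227 and 229.6 in homozygotes. The groups overlapped, and the log2 fold change of homozygotes against controls was 0.09 ± 0.057 (SE, n = 3 per group, 95% interval -0.04 to 0.21). *Pdhx*, which anchors the E3 subunit and is named after its values were seen, lay wholly below both other groups in homozygotes with log2 fold changes of -0.18 and -0.23. The adjusted p-values were 0.13 and 0.071 in limma. *Mpc1* had a log2 fold change of 0.23 against heterozygotes that passed only without homozygote 1 (0.31, adjusted p = 0.031 in limma). *Pdha1* shares 603 exonic bases with *Map3k15* on the other strand, and the library kit does not mark strand. *Map3k15* rose by 1.49 on the log2 scale against controls from a mean of 2.86, where *Pdha1* had a mean of 289.5.

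In the citrate cycle, 14 genes were measured, from citrate synthase (*Cs*) through the NAD-dependent isocitrate dehydrogenase (*Idh3a*, *Idh3b*, *Idh3g*), the 2-oxoglutarate dehydrogenase complex (*Ogdh*, *Dlst*, *Dld*), succinyl-CoA ligase (*Suclg1*, *Suclg2*, *Sucla2*) and fumarase (*Fh1*) to the malate dehydrogenases. In homozygotes against controls 1 rose (the cytosolic *Mdh1*), 1 fell (*Idh2*) and 12 did not pass, which is 14.3% called beside 15.2% of all genes. Against heterozygotes 1 fell and 0 rose in limma, edgeR or DESeq2, and 4 were lower and 0 higher at an unadjusted p under 0.05. The called share was 7.14% beside 13.6% of all genes. In those 14 genes, 4 lay wholly below heterozygotes and 1 wholly above, where 15.5% and 15.3% of all genes did. Against controls 2 lay wholly below and 2 wholly above, where 16.5% and 16.6% of all genes did. At an unadjusted p under 0.05, 2 were lower and 2 higher against controls. The median log2 fold changes were -0.02 and -0.10.

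*Idh2*, on chromosome 7 (87239732 to 87260278, minus strand, NCBIM37), makes NADPH in the mitochondrial matrix. Its normalized values were 427, 499.9 and 450.5 in controls, 465, 489.6 and 473 in heterozygotes and 418, 395 and 369 in homozygotes. All homozygous libraries lay below all others, although homozygote 1 and control 1 were close. The log2 fold change was -0.22 ± 0.067 (SE, n = 3 per group) against controls and -0.27 ± 0.067 against heterozygotes, with adjusted p-values of 0.044 and 0.018 in limma. Against controls the call was lost without control 2 (log2 fold change -0.16), control 3 (-0.23), homozygote 2 (-0.22) or homozygote 3 (-0.17), and without heterozygote 1, 2 or 3, whose libraries enter only the shared spread (-0.22 in each). The adjusted p-values in those 7 fits were between 0.054 and 0.16. Against heterozygotes it was lost without heterozygote 2 (-0.25), heterozygote 3 (-0.28) or homozygote 3 (-0.23). The *Idh3a*, *Idh3b* and *Idh3g* subunits, which catalyze the NAD-dependent step of the cycle, were not called. *Idh3a* lay wholly below heterozygotes (-0.18, adjusted p = 0.077 in limma), and it passed without homozygote 2 (-0.23, 0.041) and with the length trend removed (-0.22, 0.044).

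*Mdh1*, on chromosome 11 (21456790 to 21472370, minus strand), interconverts malate and oxaloacetate in the cytosol and belongs to the malate-aspartate shuttle. Normalized values of *Mdh1* were 546, 614 and 591 in controls, 665, 681 and 658 in heterozygotes and 655, 691 and 687 in homozygotes. Both genotypes with the driver lay above all controls and overlapped with each other. The log2 fold change of homozygotes was 0.22 ± 0.058 (SE) against controls (adjusted p = 0.024 in limma) and 0.02 ± 0.058 against heterozygotes (95% interval -0.11 to 0.15). Heterozygotes against controls gave 0.20 ± 0.058, with an adjusted p of 0.39. The call against controls was lost without control 1 (0.17, adjusted p = 0.11), control 3 (0.23, 0.059), homozygote 2 (0.20, 0.066) or homozygote 3 (0.21, 0.067). It was also lost after quantile normalization (0.12, adjusted p = 0.19) and with the length trend removed (0.17, 0.080). The mitochondrial *Mdh2* had a log2 fold change of 0.03 against controls, and the ratio of *Mdh1* to *Mdh2* was 1.60 ± 0.071 (SD) in controls, 1.69 ± 0.055 in heterozygotes and 1.81 ± 0.072 in homozygotes.

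Uptake and activation of fatty acids were covered by *Cd36*, *Fabp3* and *Acsl1*, of which *Cd36* was called. *Cd36*, on chromosome 5 (17287508 to 17394777, minus strand), encodes a scavenger receptor that takes up long-chain fatty acids in muscle, fat and endothelium. Its normalized values were 33.1, 34.5 and 40.3 in controls, 41.5, 39.8 and 48.1 in heterozygotes and 49.4, 55.4 and 48.5 in homozygotes. Homozygotes lay above every other library, with heterozygote 3 just under the lowest of them. The log2 fold change was 0.50 ± 0.096 (SE, n = 3 per group, 95% interval 0.30 to 0.71) against controls, with an adjusted p of 0.004 in limma, and the mean was 142% of the control mean. Across the alternatives it stayed between 0.44 and 0.59 and was called in each, with adjusted p-values from 0.00076 to 0.028. Against heterozygotes it was 0.24 ± 0.096 and did not pass (adjusted p = 0.11). *Cd36* is also made by endothelial and blood cells, and of the genes described below the erythroid ones rose in the same libraries, while the endothelial sum had a mean of 1101 in homozygotes and 1263 in controls. In heterozygotes, where the *Cd36* mean was above that of controls, the erythroid sum had a mean of 35162 beside 39028. The part of these cells in the *Cd36* values was not tested.

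*Fabp3* had normalized values of 80, 98.6 and 95.1 in controls, 100.4, 106 and 91.5 in heterozygotes and 103, 109 and 102 in homozygotes. All homozygous libraries lay above all controls, but the log2 fold change of 0.20 ± 0.081 did not pass (adjusted p = 0.12 in limma). *Fabp3* has an annotated pseudogene that is near-identical over 402 bases, and it shares 81 and 80 exonic bases with genes on the other strand, so its reads may not be wholly its own. *Acsl1*, which activates fatty acids, lay wholly below controls and heterozygotes in homozygotes, with log2 fold changes of -0.18 and -0.24 that did not pass.

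Of the 4 carnitine shuttle genes, *Cpt1b* fell, by more than any other of the 42 genes, and the other 3 were not called. *Cpt1b*, on chromosome 15 (89246836 to 89256294, minus strand), encodes the muscle form of carnitine palmitoyltransferase 1, the malonyl-CoA-sensitive step that commits long-chain fatty acids to the mitochondrion. In normalized units *Cpt1b* had 115, 129.6 and 133 in controls, 129, 135 and 139.9 in heterozygotes and 92.8, 99.8 and 86.5 in homozygotes. The homozygous libraries lay well below the other 6, which overlapped with each other. The log2 fold change was -0.43 ± 0.072 (SE, n = 3 per group, 95% interval -0.59 to -0.28) against controls and -0.53 ± 0.072 (-0.69 to -0.38) against heterozygotes. The adjusted p-values were 0.0018 and 0.00056 in limma, and the homozygote mean was 74% of the control mean and 69.2% of the heterozygote mean. Over all alternatives the fold change stayed between -0.50 and -0.33 against controls and between -0.58 and -0.40 against heterozygotes, and it was called in each.

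In this annotation *Cpt1b* shares 2744 exonic bases, 81.4% of its length, with *Chkb*, the choline kinase gene upstream on the same strand, through a transcript that reads across both. Reads in those exons could have been given to either gene. *Chkb* had log2 fold changes of 0.02 against controls and 0.07 against heterozygotes, from a control mean of 31.9. With the reads of both genes summed, an alternative added after seeing the data, the fold change was -0.33 against controls (adjusted p = 0.0095) and -0.40 against heterozygotes (adjusted p = 0.0036).

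*Cpt1a*, the form that prevails in liver and many fetal tissues, is named after its values were seen. Its normalized values were 35.4, 36.9 and 36.3 in controls, 36.5, 35.1 and 32.6 in heterozygotes and 43, 47.1 and 35.2 in homozygotes. Homozygote 3 stayed at the control level while the other two homozygous libraries lay above. The log2 fold changes of 0.19 ± 0.099 and 0.25 ± 0.099 did not pass (adjusted p = 0.21 and 0.11 in limma), and without homozygote 3 they were 0.31 and 0.37 and passed (0.044 and 0.023). The ratio of *Cpt1b* to *Cpt1a* values was 3.23, 3.52 and 3.65 in controls, 3.53, 3.83 and 4.29 in heterozygotes and 2.16, 2.12 and 2.46 in homozygotes. The ratio was thus lower in every homozygous library than in any other, given here as a description with no test. The inner membrane transferase *Cpt2* had log2 fold changes of 0.02 and -0.06. The carrier *Slc25a20*, which exchanges acylcarnitine for carnitine, lay wholly below both other groups but did not pass (-0.17 and -0.12), except against controls with the length trend removed (-0.24, adjusted p = 0.031).

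**Figure D5:**
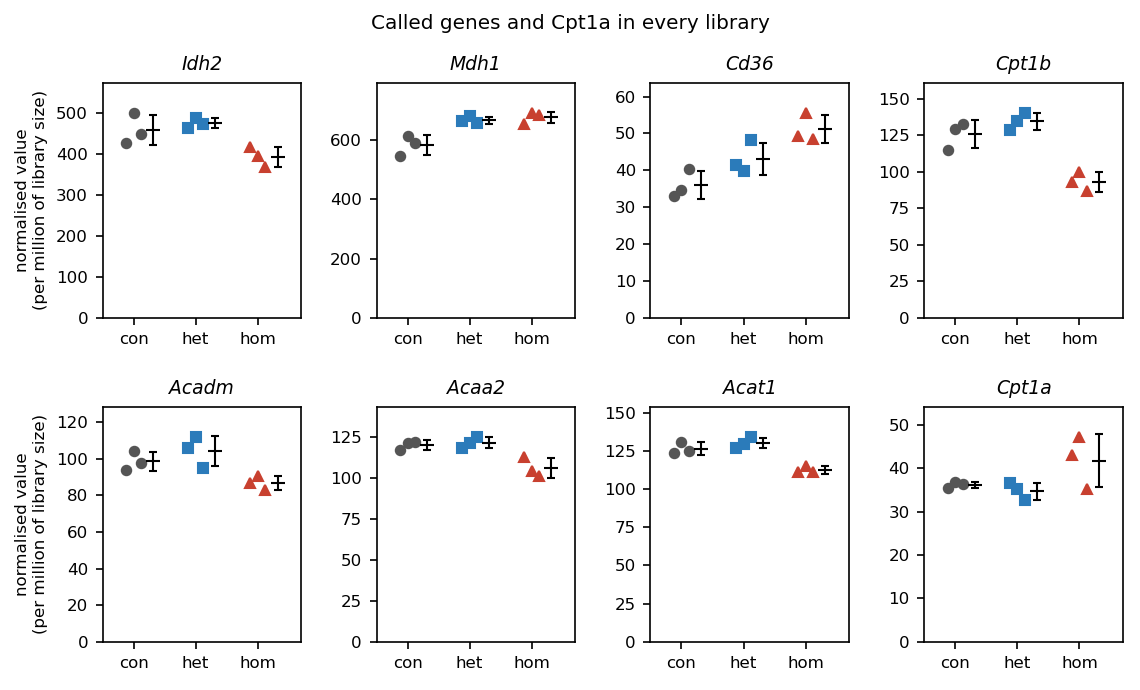
Normalized values of the 7 called genes and of Cpt1a in every library (con, control; het, heterozygote; hom, homozygote), with the mean and SD of each group beside the points and axes from 0. The 3 homozygous libraries lie lowest for Idh2, Cpt1b, Acadm, Acaa2 and Acat1 and highest for Cd36, whereas for Mdh1 they overlap with the heterozygotes.

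The beta-oxidation spiral was represented by 10 genes. The acyl-CoA dehydrogenases of very long, long, medium and short chains (*Acadvl*, *Acadl*, *Acadm*, *Acads*) open each turn. The *Hadha* subunit of the trifunctional protein, *Echs1* and *Hadh* carry out hydration and the second oxidation. The thiolases *Hadhb* (the other subunit of that protein), *Acaa2* and *Acat1* release acetyl-CoA. Against controls 0 of the 10 were called by limma or DESeq2, edgeR called 2 lower (*Acaa2* and *Acat1*), and 3 were lower at an unadjusted p under 0.05. Against heterozygotes 3 of the 10 fell and 0 rose in limma, edgeR or DESeq2, and 6 had an unadjusted p under 0.05, each with a negative fold change. Among all genes 8.03% were called lower against controls and 6.7% against heterozygotes, and 29.6% and 27.6% had an unadjusted p under 0.05. DESeq2 called 1 of the 3 that fell against heterozygotes. All 10 log2 fold changes against heterozygotes were negative, from -0.26 to -0.06 with a median of -0.14, and 9 of 10 were negative against controls with a median of -0.12. Of all genes, 50.8% and 50.1% had a negative fold change in these comparisons. The 10 cardiomyocyte genes described below were also all negative against heterozygotes, with a median of -0.30, and 5 of 10 were negative against controls. Their part in the values of the spiral was not tested.

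*Acadm*, on chromosome 3 (153585321 to 153607596, minus strand), encodes medium-chain acyl-CoA dehydrogenase. *Acadm* had normalized values of 93.9, 104 and 97.9 in controls, 106, 112 and 95.2 in heterozygotes and 86.9, 90.6 and 83.3 in homozygotes. Every homozygous library lay below every other library. Against heterozygotes *Acadm* had a log2 fold change of -0.26 ± 0.070 (SE, adjusted p = 0.027 in limma), and against controls one of -0.18 ± 0.070 (adjusted p = 0.10). The call against heterozygotes was lost without heterozygote 1 (-0.25), heterozygote 2 (-0.21), homozygote 1 (-0.26) or homozygote 3 (-0.23).

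*Acaa2*, on chromosome 18 (74938851 to 74965861, plus strand), encodes a thiolase that closes the mitochondrial spiral. Values of *Acaa2* in normalized units were 117, 121 and 122 in controls, 118, 121 and 124 in heterozygotes and 113, 104 and 101 in homozygotes. Homozygotes lay below the other groups, with homozygote 1 nearest to them. The log2 fold change was -0.20 ± 0.058 (SE) against heterozygotes (adjusted p = 0.041 in limma) and -0.18 ± 0.058 against controls (adjusted p = 0.055). The call against heterozygotes was lost without control 1, 2 or 3, heterozygote 1, 2 or 3, homozygote 2 or homozygote 3, with log2 fold changes from -0.21 to -0.16 and adjusted p-values from 0.050 to 0.15. Against controls it passed without homozygote 1 (-0.22, adjusted p = 0.029). With the length trend removed it passed in both comparisons (-0.27 and -0.29).

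*Acat1*, on chromosome 9 (53388627 to 53418487, minus strand), encodes the acetoacetyl-CoA thiolase, which also acts on ketone bodies and isoleucine. Its normalized values were 123, 131 and 125 in controls, 127, 129 and 134 in heterozygotes and 111, 115 and 111 in homozygotes. The groups were tight and homozygotes lay below all other libraries. Its log2 fold change was -0.21 ± 0.054 (SE) against heterozygotes (adjusted p = 0.021 in limma) and -0.17 ± 0.054 against controls, where the adjusted p of 0.05002 was just over the threshold. It passed against controls with a pseudocount of 1, with filters on a mean value of at least 1 or 5 and in edgeR (adjusted p from 0.044 to 0.049), and not in DESeq2 (0.14). The call against heterozygotes was lost without heterozygote 2 (-0.21), heterozygote 3 (-0.19) or homozygote 3 (-0.20).

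Of the 3 genes that carry electrons from the acyl-CoA dehydrogenases to the respiratory chain, none was called in homozygotes by limma, edgeR or DESeq2, with 1 above controls and 0 above heterozygotes at an unadjusted p under 0.05. *Etfb* had normalized values of 132, 139.7 and 134 in controls, 141, 146 and 129.5 in heterozygotes and 152, 141 and 144 in homozygotes. Homozygotes lay above controls and overlapped with heterozygotes, and the log2 fold change of 0.11 ± 0.060 (SE) against controls did not pass (adjusted p = 0.27). All 3 genes had positive fold changes in both comparisons (0.07 to 0.17 and 0.06 to 0.11), opposite in sign to most of the spiral they serve. *Etfdh*, which passes the electrons to ubiquinone, had the largest of them, 0.17 with an adjusted p of 0.077 in limma. It passed after quantile normalization (0.19, adjusted p = 0.045) and with the length trend removed (0.26, adjusted p = 0.022).

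The auxiliary enzymes that handle double bonds, *Eci1* and *Decr1*, were not called by limma, edgeR or DESeq2, with 1 lower than controls at an unadjusted p under 0.05. *Eci1* had normalized values of 42.2, 50.9 and 51.8 in controls, 48.3, 45.9 and 40.9 in heterozygotes and 42.6, 46.5 and 47 in homozygotes. These overlapped, and the 95% interval of its log2 fold change against controls was -0.28 to 0.11.

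Heterozygotes were compared with controls to see how these genes stood with a single allele deleted and the driver present. None of the 42 genes was called by limma, edgeR or DESeq2, beside 0.143% of all genes tested, and the 4 with an unadjusted p under 0.05 (9.52%, beside 7.37% of all genes) were all higher. The fold changes were positive in 33 of the 42 genes, with a median of 0.05 on the log2 scale, where 50% of all genes were positive with a median of 0.00. In the same comparison 8 of 10 cardiomyocyte genes were positive (median 0.15), and 11 of 11 liver and visceral endoderm genes were negative (median -2.27). For 32 of the 42 genes the 95% interval lay within 1.2-fold of controls. Those 4 were *Mdh1* (0.20), *Cd36* (0.26), *Hadhb* (0.16) and *Dld* (0.16), named after their values were seen, and every heterozygous library lay above every control for each of them but *Cd36*. None of these differences passed the adjustment over all genes, with adjusted p-values in limma from 0.39 to 0.61.

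The libraries within a genotype did not vary independently across these genes. Homozygote 2 was the highest homozygous library for 28 of the 42 genes and the lowest for 2, while it was the highest for 34.4% of all genes. Control 1 was the lowest control library for 27 genes and control 2 the highest for 25. The median of the 42 genes relative to the control mean was -0.07, 0.04 and -0.09 on the log2 scale in homozygotes 1, 2 and 3. In the fatty acid genes alone it was -0.09, -0.04 and -0.11, and in heterozygotes it was 0.01, 0.03 and 0.04. Controls 1, 2 and 3 had -0.03, 0.04 and 0.02, so that control 1 stood close to homozygote 2. The homozygous libraries had the same order in the summed level of 10 cardiomyocyte genes, which was 18788, 21469 and 17990 in homozygotes 1, 2 and 3 and 19291 in control 1, the lowest control.

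Those cardiomyocyte genes ranged in sum from 17990 to 21469 in homozygotes, 19291 to 21880 in controls and 21591 to 25363 in heterozygotes. The sarcomere genes *Tnnt2*, *Actc1*, *Myl2* and *Myl7* were not called, whereas *Ryr2* and *Pln*, which handle calcium, fell against both groups and *Myh6* and *Myh7* fell against heterozygotes. All 10 primitive erythroid genes rose against both groups, and their sum was 58089 to 76792 in homozygotes, 32711 to 47455 in controls and 26262 to 44483 in heterozygotes. DESeq2 called 5 of the 10 against controls. Of 8 epicardial genes 5 rose, with sums of 654 to 717 in homozygotes, 476 to 536 in controls and 505 to 529 in heterozygotes. Endothelial and endocardial genes summed to 1036 to 1224 in homozygotes and 1220 to 1344 in controls. Against controls 2 of 10 (*Kdr* and *Npr3*) fell and 1 (*Emcn*) rose, and DESeq2 did not call *Emcn*. *Kdr* also fell against heterozygotes (-0.37). Cushion mesenchyme genes summed to 1197 to 1546 in homozygotes and 1340.4 to 1402 in controls, and 2 of 8 (*Postn* and *Tbx20*) fell against controls. Macrophage genes were low, with sums from 16 to 33.5 over all libraries, and none of the 7 in the table was called by limma, edgeR or DESeq2, with 1 at an unadjusted p under 0.05 against controls and 2 against heterozygotes. The liver and visceral endoderm genes were not called in limma, with 3 and 2 of 11 at an unadjusted p under 0.05, while edgeR called 2 lower against controls and 2 higher against heterozygotes. No marker gene in the table was at 0 reads in every library. Fewer cells of a type and less RNA per cell cannot be told apart in bulk hearts, and the part of these cell types in the fold changes of the 42 genes was not tested.

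Further genes of the same pathways were counted from lists by role. Of 99 such genes in the table, 5 rose and 17 fell against controls and 4 rose and 16 fell against heterozygotes, which is 22.2% and 20.2% of them beside the 15.2% and 13.6% of all genes, with median log2 fold changes of -0.08 in each. None was called between heterozygotes and controls by limma, edgeR or DESeq2, with 12 at an unadjusted p under 0.05. The changes of these neighboring steps were in part larger than those of the 42 genes. The cardiomyocyte and erythroid genes above moved in the same libraries, and their part in these counts was not tested. DESeq2 called fewer, with 4 higher and 11 lower against controls and 3 higher and 12 lower against heterozygotes. Of the genes named in the next paragraphs, it did not call *Hsd17b4*, *Me1* and *Acad8* in either comparison, *Sdhd*, *Got1*, *Acsl6* and *Echdc2* against controls, or *Pck2*, *Mut* and *Ivd* against heterozygotes.

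Of the genes that exchange citrate cycle carbon with amino acids and cytosol, 5 of 15 were lower against controls and 4 against heterozygotes, beside 8.03% and 6.7% of all genes. *Got2*, the mitochondrial aspartate aminotransferase of the malate-aspartate shuttle, had normalized values of 271, 286 and 297 in controls, 297, 318 and 298 in heterozygotes and 198, 199.8 and 196 in homozygotes. The homozygous libraries were close together and lay far below the rest. The log2 fold changes were -0.52 ± 0.051 and -0.62 ± 0.051 (SE), with adjusted p-values of 5.1e-05 and 1.9e-05 in limma. Its cytosolic partner *Got1* fell as well (-0.23 and -0.32), as did malic enzyme *Me1* (-0.26 and -0.24) and ATP citrate lyase *Acly* (-0.24 and -0.20). The mitochondrial phosphoenolpyruvate carboxykinase *Pck2* rose against heterozygotes (0.31).

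Among 15 further genes of fatty acid supply, 5 fell and 0 rose against controls in limma, edgeR or DESeq2, with 1 higher at an unadjusted p under 0.05. Against heterozygotes 3 fell and 1 rose. Of all genes 8.03% and 6.7% were called lower. *Lpl*, the lipoprotein lipase that frees fatty acids from circulating triglyceride, had normalized values of 128, 136 and 135 in controls, 124, 142 and 117 in heterozygotes and 84.4, 81.8 and 68.8 in homozygotes. Its log2 fold changes of -0.77 ± 0.086 and -0.70 ± 0.086 (SE) had adjusted p-values of 8.1e-05 and 0.00024 in limma. *Lpl* thus fell in the libraries in which *Cd36* rose. The acyl-CoA synthetases *Acsl3* (-0.35 and -0.44), *Acsl4* (-0.30 against controls) and the scarce *Acsl6* (-1.11 against controls) fell too. Of the acyl-CoA thioesterases, *Acot2* fell against both groups (-0.63 and -0.62) and *Acot1* rose against heterozygotes (0.63). *Acot1* and *Acot2* are close paralogs, so reads between them may be divided uncertainly.

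Genes that set malonyl-CoA, the inhibitor of CPT1, were listed together with those of ketone bodies. Of these 9 genes 3 fell and 1 rose against controls, beside 8.03% and 7.19% of all genes, and 3 fell against heterozygotes, beside 6.7%. The acetyl-CoA carboxylases *Acaca* (-0.35 and -0.32) and *Acacb* (-0.48 and -0.71) fell against both groups. *Prkaa2*, a catalytic subunit of the kinase AMPK, had normalized values of 136, 145 and 146 in controls, 111, 128 and 153 in heterozygotes and 80.7, 109 and 86.1 in homozygotes, with log2 fold changes of -0.63 and -0.50. The heterozygous libraries spread widely there, yet all lay above the homozygous ones. *Bdh1*, a ketone body dehydrogenase, rose against controls (0.75). It was not called against heterozygotes (0.28), and heterozygotes against controls gave 0.47, also not called. Of 11 genes of peroxisomal beta-oxidation, *Hsd17b4* fell against both groups (-0.20 and -0.20).

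Of 7 regulators of pyruvate dehydrogenase, the phosphatase *Pdp2*, which activates the complex, rose against both groups (0.72 and 0.81) from values near 10, and the kinase *Pdk3*, which inhibits it, fell against controls (-0.31). Of 11 other citrate cycle genes, *Sdhd* of succinate dehydrogenase rose against controls (0.17), and 0 passed in limma or edgeR against heterozygotes, where DESeq2 called 1 lower and 3 were lower at an unadjusted p under 0.05. Among 20 other genes listed with mitochondrial beta-oxidation and branched-chain breakdown, *Echdc1* rose against both groups (0.48 and 0.40). *Crat*, carnitine acetyltransferase, rose against controls (0.30). *Acad8* fell against both (-0.32 and -0.35), *Echdc2* against controls (-0.74), and *Pcca*, *Mut* and *Ivd* against heterozygotes (-0.42, -0.25 and -0.24). Of 11 nuclear receptors and partners that regulate fatty acid oxidation, *Rxra* fell against heterozygotes (-0.33), and against controls 0 passed in limma, edgeR or DESeq2 and 1 was lower at an unadjusted p under 0.05. *Ppara* and *Pparg* were not among the genes of the table.

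Gene models, length and position were described beside these values. Of the 42 genes, 8 share exonic bases with another annotated gene, and 4 have a near-identical copy of part of their exons. That part was 48.8% in *Fabp3*, 38.9% in *Suclg2*, 21.8% in *Hadhb* and 15.7% in *Mpc1*. The values of all these genes are less certain. *Acadvl* shares 42.9% of its exonic bases with *Dvl2* on the other strand, and both had small fold changes against controls (-0.11 and -0.06). The median exonic length of the 42 genes was 3152 bases and that of all placed genes 3669 bases. Across all genes the fold change in homozygotes against controls fell with length (Spearman's rho -0.31 over 13987 genes), and across the 42 genes rho was -0.08. The 14 genes of the table nearest to the 7 called genes, 1 on each side, held 2 calls against controls and 1 against heterozygotes. Of all genes 15.2% and 13.6% were called in these comparisons. *Zfp710* beside *Idh2* fell by 0.40 and *Cul5* beside *Acat1* fell by 0.29 on the log2 scale against controls, and the neighbors of *Cpt1b*, *Cd36*, *Mdh1*, *Acadm* and *Acaa2* were not called by limma.

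Promoter windows of 300 bases, from 250 before to 50 after the RefSeq transcription start (GRCm38.p6), were found for 37 of the 42 genes and searched on both strands. The windows of *Acaa2*, *Acat1*, *Cpt1b*, *Decr1* and *Idh3a* were not used here. The motifs were an estrogen-related receptor element (TNAAGGTCA), a PPAR direct repeat (AGGTCA, 1 base of any kind, AGGTCA), the NRF1 palindrome (CGCATGCG), a GABP site (ACCGGAAGT) and a CTCF core (CCA, AG and GGC with 2 bases of any kind between them). The estrogen-related receptor element ends in letters that the PPAR repeat also holds. Neither of them was in any of the 37 genes, beside 1.43% and 0.0481% of 27025 genes. The NRF1 palindrome was in 3 of the 37 (*Acadm*, *Etfdh* and *Ogdh*), beside 2.07% of all genes, and in a form with G added before and C after it, which was searched first, in 1 (*Etfdh*), beside 1.07%. The GABP site was in 1 (*Dlst*), beside 1.21%, and the CTCF core in 1 (*Cpt2*), beside 2.82% of all genes. The promoter of *Cpt2* is shown because it holds the only CTCF core of these genes in a deletion of *Ctcf*. That of *Acadm* is shown because, of the called genes with a window, it alone held a match. Both are written 5′ to 3′ along the gene, with the CTCF core or the NRF1 palindrome in capitals.
Cpt2, chr4:107923540-107923839, minus strand: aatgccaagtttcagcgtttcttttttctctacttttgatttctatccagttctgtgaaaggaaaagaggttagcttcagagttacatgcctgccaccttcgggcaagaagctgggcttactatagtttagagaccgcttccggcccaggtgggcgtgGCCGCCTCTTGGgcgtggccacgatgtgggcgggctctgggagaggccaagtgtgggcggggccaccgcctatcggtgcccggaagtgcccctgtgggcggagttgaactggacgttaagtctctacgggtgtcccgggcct
Acadm, chr3:153944594-153944893, minus strand: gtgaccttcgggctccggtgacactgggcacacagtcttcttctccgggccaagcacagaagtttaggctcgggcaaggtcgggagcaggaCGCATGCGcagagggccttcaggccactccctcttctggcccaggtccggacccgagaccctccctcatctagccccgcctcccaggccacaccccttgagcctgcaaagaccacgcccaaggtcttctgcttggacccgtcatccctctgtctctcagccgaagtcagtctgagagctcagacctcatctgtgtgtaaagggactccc
The core in *Cpt2* begins 92 bases before the start and reads on the strand opposite to the gene, and *Cpt2* was not called in any comparison. The palindrome in *Acadm* begins 159 bases before the start. A match describes letters and not a bound site.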

How the data were processed

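RNA was measured in 9 libraries of E10.5 hearts, 3 per genotype. Per the labels, polyadenylated RNA was sequenced on a GAIIx instrument, and the submitters' processing notes name CASAVA 1.8, cutadapt 1.6.1, RSEM 1.20, Bowtie2 0.12.7, limma and the build NCBIM37. These version numbers are copied as given, and how the tools were combined is not given in the sources used here. The deposited signal values were made by the authors as whole reads plus 0.5, scaled by 1 factor per library equal to edgeR's TMM effective size. Whole reads came back for 100% of the values within 0.01 of a read. No gene of the 14011 had fewer than 3 libraries at a value of 1 or more, so the table looks filtered. Depth was 4294537 to 11629365 reads.

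The column names of controls and heterozygotes do not match the sample titles, and columns were assigned to genotypes by their names, read with the growth protocol of the labels and the genotypes in the study's methods. As a check, the study's group averages equaled the column means within 1% in 1998 of 1998 control, 787 of 787 heterozygote and 2785 of 2785 homozygote genes.

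From these values log2(value + 0.5) was fitted with limma 3.58.1 (R 4.3.3), with 3 groups and all 9 libraries in 1 fit, a mean-variance trend and Benjamini-Hochberg adjustment across the 14011 genes. An adjusted p under 0.05 was the threshold for a call. Intervals are 95% intervals from the same fit. No length correction is in the values, so levels of different genes were compared per kilobase of GENCODE M1 exons. Near-identical copies were searched with BLAST+ 2.17.0 at 95% identity and kept where the match covered at least 50% of the exons of either gene. The alternatives were pseudocounts of 0.1 and 1, filters on mean value, only the groups compared, quantile and median-of-ratios scaling, limma without trend, edgeR 4.0.16 and DESeq2 1.42.0 on the whole reads, a threshold of 0.01, removal of the length trend, a block by library number and leaving out each library. The fitting code was tested on simulated data.

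Genes named with values were the called ones, the gene of each role with the highest control level per kb, called genes of the other lists, and *Ctcf*. The values of 1 called gene of the other lists are not reported here. Every other gene of the 42 given with values (*Acsl1*, *Cpt1a*, *Cpt2*, *Dld*, *Etfdh*, *Hadhb*, *Idh3a*, *Mdh2*, *Mpc1*, *Pdhx* and *Slc25a20* among them) was named after its values were seen. The 42 genes and all lists were chosen with earlier results of these data known. Of the listed genes, *Fabp4*, *Acox2*, *Acaa1b*, *Ppara*, *Pparg*, *Aif1*, *Apoa4* and *Foxa2* were not among the genes of the table.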

Additional observations from a re-analysis of the deposited data

How the results depend on the processing

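With fits of 3 libraries per group, changes of a few percent are within the spread, and calls close to the threshold move with the settings. Over 23 other settings and 1 more added after seeing the data, no fold change of the 42 genes was called in the opposite direction. *Cpt1b* in both comparisons of homozygotes and *Cd36* against controls were called in each, whereas the calls of *Idh2*, *Mdh1*, *Acadm*, *Acaa2* and *Acat1* were each lost under at least 5.

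Against controls the number of the 42 genes called was 2 without the trend and 2 at the threshold of 0.01, and it ranged from 2 to 5 when 1 library was left out. All genes called were 2133, and 1196 without the trend, 1353 with the length trend removed, 1082 with that and the replicate block together, 858 at the threshold of 0.01 and from 1049 to 2084 with 1 library left out. The median log2 fold change of the fatty acid genes was -0.0571 with the length trend removed, with or without the block, and from -0.12 to -0.0556 with 1 library left out. Against heterozygotes the number of the 42 was 1 without the trend, 3 by DESeq2, 1 at the threshold of 0.01 and from 1 to 6 with 1 library left out. All genes called were 1901, and 1063 without the trend, 1155 with the block and the length trend removed, 722 at the threshold of 0.01 and from 1023 to 1859 with 1 library left out. The fatty acid median ranged from -0.13 to -0.0885 there. Between heterozygotes and controls all genes called were 20, and 10 without the trend, 40 by DESeq2, 13 at the threshold of 0.01 and from 13 to 25 with 1 library left out. Fewer libraries or a stricter threshold account for some of these counts by construction, and for the others the cause was not tested.

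Whether libraries with the same number were paired is not given in the sources. The 9 same-number correlations of deviations were -0.043 to 0.085, and 0 of 9 libraries correlated best with their own number in both other groups. Libraries of unlike number reached 0.12 (control 1 and homozygote 3). With 3 libraries per group, correlations this low cannot settle whether pools were collected together. With the replicate block 3 of the 42 genes were called against controls, 4 against heterozygotes and 0 between heterozygotes and controls. The calls lost there were *Idh2* against controls (adjusted p = 0.064) and *Acaa2* against heterozygotes (0.084). Removing the length trend of all genes lost the call of *Mdh1*, and *Slc25a20*, *Acaa2* and *Etfdh* passed against controls and *Dlst* and *Idh3a* against heterozygotes.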

Other observations

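Ratios between other pairs of genes from the list were computed as well, with no test, and the pairs were named after their values were seen. *Cd36* stood at 0.396 ± 0.040 of the *Fabp3* value in controls (SD, n = 3), at 0.438 ± 0.079 in heterozygotes and at 0.489 ± 0.018 in homozygotes. Every homozygous library lay above every control in this ratio, and homozygotes overlapped with heterozygotes. The ratio of *Idh2* to *Idh3a* was 1.67 ± 0.081 for controls, 1.63 ± 0.11 for heterozygotes and 1.53 ± 0.16 for homozygotes, and all groups overlapped. *Sucla2* and *Suclg2* encode the alternative partners of *Suclg1* in succinyl-CoA ligase, and their ratio was 1.03 ± 0.036 for controls, 1.12 ± 0.10 for heterozygotes and 1.06 ± 0.038 for homozygotes. Homozygotes overlapped with both other groups there.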
